A study of Macaca mulatta with 24 samples.

Results

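The genes described here encode the proteins of cell junctions, keratins and integrins, measured in endometrium of rhesus monkeys. Membership was set by a rule on gene names, chosen with earlier results of these data known. It held every gene whose scanner-file name begins like that of a claudin, numbered keratin, cadherin, desmocollin, desmoglein, tight junction protein, connexin or integrin gene. The names DSP, OCLN, EPCAM and JUP also qualified, and CLDN5, CDH5 and GJA3 were left out. This gave 74 genes of the 18976 gene names on the array, each represented by its brightest probe. Of the named singles, only OCLN stands under its own name in the files. ITGB1BP1, ITGB1BP2, ITGB3BP and ITGBL1 match the naming rule, but they encode binding partners or a look-alike of integrins and were kept apart as genes that are no integrin.

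Endometrial RNA was hybridised to 24 Agilent 1-colour arrays, 4 for each of 6 groups. The conception groups came from mated cycles in which conception was shown, at days 2, 4 and 6 after ovulation, and the non-mated groups came from cycles without mating, at the same days. All animals are described as fertile and ovulating normally, and the labels name no treatment in either cycle type. The titles of 8 non-mated samples say day 2 where their other labels say day 4 or 6, and the other labels were followed. Source names of the conception samples count days from fertilization, whereas their descriptions count from ovulation. The labels do not state whether replicate arrays represent different animals. The p-values below therefore reflect array-to-array spread, part of which may be technical.

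Tight junctions seal the space between epithelial cells. Claudins and occludin form their strands, and the TJP proteins tie the strands to actin. Cadherins join neighbouring cells through calcium-dependent contacts, desmosomal cadherins anchor keratin filaments at the membrane, and connexins build gap junction channels. Integrins are paired alpha and beta receptors for extracellular matrix or for ligands on other cells. In the endometrium these proteins hold the glandular and luminal epithelium together and face the embryo at implantation, and several integrins are studied there as marks of a receptive lining.

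A level on an array is a hybridisation signal at 1 probe of 60 bases per gene, so the probe fixes what is being read. The first 30 bases of 5 probes are shown, 5′ to 3′, for the members with the largest or most regular differences below, as the array files give them. The positions of the whole probes on the rheMac2 build are chr20:28586884-28586943 on the plus strand for ITGAL, chr10:18308741-18308800 on the plus strand for CDH22, chr11:49874556-49874615 on the minus strand for KRT4, chr3:105755847-105755906 on the minus strand for ITGB8 and chr16:54468369-54468428 on the minus strand for ITGA2B.
ITGAL: tccctgagatgtccacagatgcctccccct
CDH22: ccgctgagatgcccccaccccaggtttccc
KRT4: ccatcacctggtagcacctggccctgcaag
ITGB8: atgcatgtgtctttatggtttgcttctttt
ITGA2B: gctgttccatggggtcctcttggtgtcatt
The families are rich in close relatives. Over 640 pairs of probes of genes whose names begin alike, the longest run of bases in common was 11, and 0 pairs had 20 or more in common. The probes were compared only with each other, which cannot show whether a probe also binds the transcript of a relative. That was not tested. The keratin genes lie in 2 clusters, 10 on chromosome 11 between 49388559 and 49889489 and 13 on chromosome 16 between 50771458 and 51579112. The 4 desmosome genes all lie on chromosome 18.

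Most of the keratins and cadherins were too dim in this tissue to be tested. A gene was tested when, in some group, 3 or all 4 arrays showed its probe well above background, and 35 of the 74 members were tested, 47.3% against 63.5% of all gene names. On none of the 24 arrays were 16 members well above background, among them CLDN17, CLDN18, CLDN19, CLDN20, KRT20, KRT36, KRT37, ITGA2 and ITGB6. Testing reached 6 of 11 tight junction genes (CLDN11, CLDN15, CLDN23, OCLN, TJP1 and TJP3), 3 of 11 cadherins (CDH11, CDH13 and CDH22), 1 of 4 desmosome genes (DSG2) and 5 of 7 connexins (among them GJA1, GJA5, GJB1 and GJB2). Among keratins, KRT20, the single member of the simple epithelial type, was not tested, and 6 of the 22 others were (KRT3, KRT4, KRT31, KRT73, KRT81 and KRT83). Among integrins, 3 of 4 genes of leucocyte and platelet integrins were tested (ITGA2B, ITGAL and ITGB7) and 8 of 10 others (ITGA5, ITGA6, ITGA8, ITGA11, ITGAV, ITGB4, ITGB5 and ITGB8), and 3 of the 4 genes that are no integrin were also tested.

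The arrays were not of equal quality, and the tissue was a mixture. On 21 arrays 53.3% to 71.5% of probes were well above background, against 4.33% on non-mated day 2 replicate 3, 37.9% on non-mated day 4 replicate 1 and 21.8% on non-mated day 4 replicate 2. On these 3 weak arrays 7, 20 and 17 of the 35 tested members were well above background, so most results that use them are given with and without them. Among the epithelial markers, WFDC2 was well above background on 24 arrays, PAX8 and ST14 on 23 and SPINT2 on 22. The stromal markers VIM and COL3A1 and the smooth muscle marker DES were well above background on all 24. Conception day 2 replicate 2 stood apart by its smooth muscle markers, whose summed signal was 178 times the array's 75th percentile, against 3.40 to 30.1 times on the other arrays. In bulk tissue, fewer cells of a type and less RNA per cell cannot be told apart.

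Levels are log2 signals relative to the 75th percentile of the array, so 0 is that percentile and a difference of 1 is a 2-fold ratio. Between day 6 and day 2 of conception cycles, which involve no weak array, the leucocyte integrin ITGAL, the cadherin CDH22 and the keratin KRT4 were at higher levels on every day 6 array than on any day 2 array. None of them passed the test over all features: 0 of 35 members passed at an adjusted p of 0.05 (limma, Benjamini-Hochberg), where 1.05% of the 12053 features tested passed, 112 of 126 of them higher at day 6. At an unadjusted p under 0.05 there were 6 members (17.1%), namely ITGAL, CDH22, KRT4, ITGA2B, ITGA11 and CLDN23, and 1467 features (12.2%). Of the 35, 20 were higher at day 6, with a median difference of 0.32 against -0.02 over all features. The members' median was 0.04 when the mean over the kept probes of a gene stood in place of its brightest probe. The number of features past the threshold was 0 without conception day 2 replicate 4 or without conception day 6 replicate 2, and reached 197 without conception day 6 replicate 1.

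ITGAL encodes the alpha chain of LFA-1, the integrin with which leucocytes bind ICAM proteins. Its levels were 1.04, 0.86, 0.55 and 0.14 on the conception day 6 arrays, against -0.47, -0.30, -1.28 and -0.59 on the conception day 2 arrays. All 4 later arrays lay above all 4 earlier ones. The difference was 1.31 ± 0.36 (SE), a 2.47-fold ratio, with an adjusted p of 0.130 (limma). With scan day as a block its adjusted p was 0.0485, past the threshold. At conception day 4 the levels were 0.00, 0.41, -0.09 and -1.19, between the other days on average, and the day 6 minus day 4 difference was 0.86 ± 0.36 (limma adjusted p 1.00).

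Leucocyte markers moved in the same direction as ITGAL. The summed signal of the 5 leucocyte markers on the array was 5.19 to 10.3 times the 75th percentile at conception day 6, with a median of 6.86, against 2.47 to 6.83 at conception day 2, with a median of 3.92. CD68, CD14, NKG7 and TYROBP were well above background on at least 21 arrays and CD3E on 7. The part of leucocyte number in the ITGAL difference was not tested. ITGAL also stood at 3.66, 2.08 and 4.76 on the 3 weak arrays, where the leucocyte sum reached 22.7 on non-mated day 2 replicate 3 and 61.9 on non-mated day 4 replicate 2, so its levels there are not read as tissue levels.

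ITGB7, the beta chain that pairs with ITGA4 or ITGAE on lymphocytes, was chosen for mention after its values were seen. It stood at -2.73, -1.99, -2.06 and -2.63 at conception day 6, against -3.14, -3.03, -2.75 and -2.86 at conception day 2. The arrays did not overlap, but the closest pair differed little, and the difference was 0.59 ± 0.29. Altogether 4 members had arrays that did not overlap in this comparison, where 7.75% of all features did.

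CDH22, a classical cadherin best known from the brain, had levels of 0.07, 0.46, 0.89 and 0.12 at conception day 6, against -0.20, -0.49, -1.39 and -0.87 at conception day 2. The day 6 arrays again lay wholly above. The difference was 1.12 ± 0.35, with a limma adjusted p of 0.179. Its conception day 4 levels of -0.94, -0.35, -0.08 and -1.33 were also all below day 6, by 1.06 ± 0.35 (adjusted p 0.852).

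Of the 21 arrays that were not weak, the 4 with the highest CDH22 level were the 4 of conception day 6. The fourth of them stood at 0.07 and the next array, conception day 4 replicate 3, at -0.08. This ordering was noted after the values were seen. On the weak arrays CDH22 reached 1.21, 0.61 and 3.67.

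KRT4, a keratin of stratified mucosal epithelia, lay near background. It had levels of -4.33, -3.43, -3.08 and -4.07 at conception day 6, against -4.39, -4.68, -5.23 and -4.72 at conception day 2, without overlap. The difference was 1.03 ± 0.33 (limma adjusted p 0.191), but the probe was well above background on only 2 of the 4 day 6 arrays and 3 of the 4 day 2 arrays. The 6923 features left untested as too dim had a median difference of 1.10 in the same comparison, and 92.6% of them were higher at day 6. The difference of KRT4 thus stood beside a shift of the same size in dim probes, and the part of that shift in it was not tested.

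The other keratins tested were all higher at conception day 6 than at day 2 as well. The 6 differences had a median of 0.82 and ran between 0.27 for KRT3 and 1.30 for KRT83. Most of the 6 are keratins of hair and its follicle, and none passed the test. KRT81, a hair keratin, was well above background on all 24 arrays and had levels of 3.55, 2.26, 1.30 and 1.79 at conception day 6, against 1.35, 1.37, 0.38 and 1.85 at conception day 2. These arrays overlapped, and the difference was 0.99 ± 0.58.

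The 39 members left untested showed the shift of dim probes too, with 37 of them higher at conception day 6 than at day 2 and a median of 1.16. Without the filter on dim probes, 19 of 74 members passed (25.7%), all higher, as did 19.3% of all features. Of the 19, 16 were among the 39 untested ones, and the other 3 were ITGAL (limma adjusted p 0.0287), CDH22 (0.0422) and KRT4 (0.0473).

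ITGA2B encodes the alpha chain of the platelet fibrinogen receptor. Its levels were -0.69, -1.34, -0.57 and -0.14 at conception day 6, against -0.94, -1.0, -2.59 and -1.63 at conception day 2. The ranges overlapped, and the difference was 0.85 ± 0.38. The platelet markers PF4 and PPBP were well above background on 1 array each, GP9 on 5 and TREML1 on 0, and their summed signal was at most 0.132 times the 75th percentile outside the weak arrays. It was 0.0739 to 0.124 at conception day 6, against 0.0352 to 0.0716 at conception day 2. These markers lay near background, where the 6923 dim untested features had a median difference of 1.10 in the same comparison. Of those features 92.6% were higher at day 6. The part of that shift in the platelet sum was not tested, so the sum is not read as a platelet signal.

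CLDN23 and ITGB8 had lower values at conception day 6. CLDN23, a claudin, stood at 0.21, -1.88, -0.38 and 0.37 at conception day 6, against 0.28, 0.65, 0.56 and 1.25 at conception day 2. Only the level of replicate 4 at day 6 exceeded any day 2 value, and the difference was -1.10 ± 0.46 (limma adjusted p 0.360). ITGB8, which with ITGAV forms a receptor that activates latent TGF-beta, stood at -2.82, -3.81, -4.84 and -2.43, against -3.31, -2.55, -0.93 and -1.64 at day 2. Its difference of -1.37 ± 0.63 came with overlapping arrays, and replicate 3 of day 6 was not well above background.

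ITGA5, the fibronectin receptor chain, had the smallest unadjusted p of the remaining lower members and a difference of -0.47 ± 0.40. The collagen receptor chain ITGA11 had a difference of 1.14 ± 0.51, and a second, dimmer probe of the gene gave 1.58. Among the 8 integrins outside leucocytes and platelets only ITGA11 and ITGB5 were higher at conception day 6, and the median of the 8 was -0.18.

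**Figure D1:**
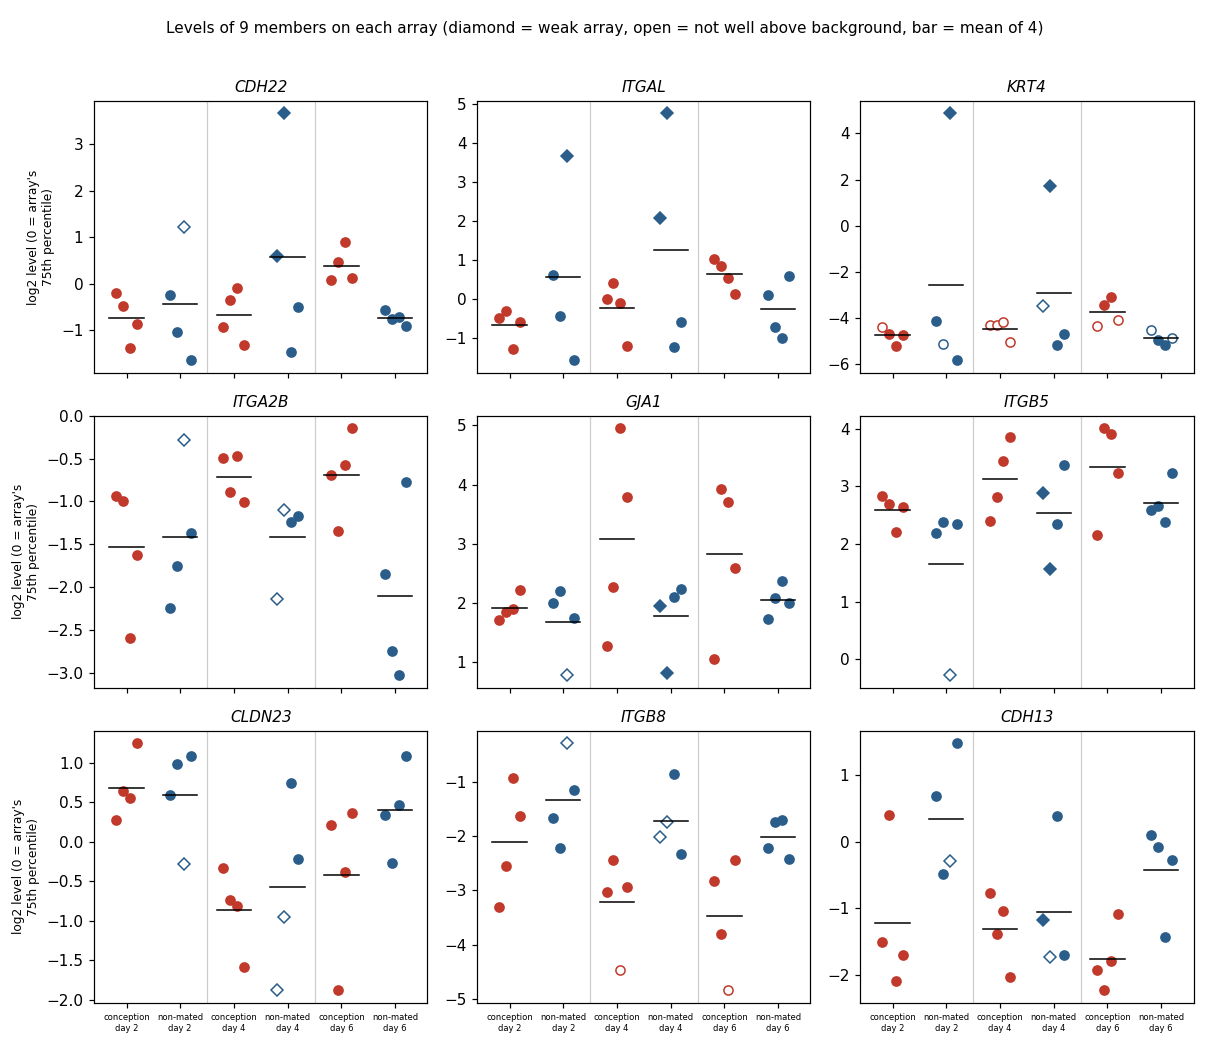
Levels of 9 members in log2 units on each of the 24 arrays, conception in red and non-mated in blue at days 2, 4 and 6, with diamonds for weak arrays, open symbols for probes not well above background and bars for the mean of 4 arrays. The 4 conception day 6 values of CDH22 lie between 0.07 and 0.89, above the 4 non-mated day 6 values of -0.91 to -0.57.

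From day 2 to day 4 of conception cycles, 0 of 35 members passed (limma), as did 0% of all features, and 1 member (CLDN23) and 751 features (6.23%) had an unadjusted p under 0.05. The members' median was 0.13, with 22 higher at day 4, against a median of 0.00 over all features. CLDN23 was the member with the clearest difference. Its levels were -0.33, -0.74, -0.81 and -1.58 at day 4, all below the 0.28 to 1.25 of day 2, with a difference of -1.55 ± 0.46 (adjusted p 0.702), 2.92-fold lower.

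ITGA6, the laminin receptor chain of epithelial basement membranes, also had arrays that did not overlap between these days. It stood at 3.21, 2.84, 2.51 and 2.59 at conception day 4, against 3.64, 3.47, 3.26 and 3.33 at conception day 2, a difference of -0.64 ± 0.33. The 2 members were the only ones without overlap here, among 4.19% of all features. ITGB4, the partner of ITGA6 in hemidesmosomes, had 1.55, 1.23, 1.23 and 0.85 at day 4 and 0.93, 1.79, 2.44 and 1.64 at day 2, with overlap.

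Also by the smallest unadjusted p, ITGB8 differed by -1.11 ± 0.63, ITGA2B by 0.83 ± 0.38, KRT31, a hair keratin, by 0.65 ± 0.36 and GJA1 by 1.15 ± 0.75 between conception days 4 and 2. All 5 connexins tested were higher at day 4, with a median of 0.43, and 1 of 5 was higher at day 6 than at day 4.

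Between conception days 6 and 4, 0 of 35 members passed (limma), with 0% of all features. CDH22, ITGAL and KRT4 were the 3 members with an unadjusted p under 0.05, which 552 features (4.58%) had. The median of the members was 0.21 against -0.01 over all features, and 23 were higher at day 6. CDH22 was the single member without overlap, where 2.25% of features had none. KRT4 was not well above background on any conception day 4 array and was so on only 2 conception day 6 arrays. Its fitted difference of 0.73 ± 0.33 thus lies between values mostly near background and sets no lower limit on a change.

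All 6 keratins had higher values at conception day 6 than at day 4, with a median of 0.70 and values down to 0.01. On the lower side stood TJP3, a scaffold of tight junctions, at -0.85 ± 0.62, ITGAV, the alpha chain of vitronectin receptors, at -0.34 ± 0.25 and CDH13, a cadherin anchored in the membrane by lipid, at -0.45 ± 0.50. These members' arrays overlapped.

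GJA1 and ITGB5 had their highest levels on the same arrays. GJA1 encodes the main gap junction protein of endometrial stroma. On conception day 2 its levels were 1.71, 1.86, 1.91 and 2.22. On conception day 4 they were 1.28, 2.27, 4.95 and 3.79, and on conception day 6 they were 1.06, 3.93, 3.70 and 2.59. Replicates 3 and 4 of day 4 and replicates 2 and 3 of day 6 stood above all other arrays, the lowest of them at 3.70 and the next array at 2.59. In non-mated cycles no array exceeded 2.38.

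ITGB5, which pairs with ITGAV to bind vitronectin, ran from 2.20 to 2.83 on the conception day 2 arrays. On conception day 4 its levels were 2.40, 2.82, 3.45 and 3.86, and on conception day 6 they were 2.16, 4.01, 3.91 and 3.24. The same 4 arrays were its highest among the 21 that were not weak, although the gap was small, with the lowest of them at 3.45 and the next array, non-mated day 4 replicate 4, at 3.37.

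GJB2, a connexin of many epithelia, spread most at conception day 4, with -5.18, -4.13, 0.37 and 1.90. Its 2 low arrays there were not well above background. On conception day 6 it stood at -5.36, -1.48, -0.42 and -4.92, again high on replicates 2 and 3. Its conception day 2 levels ran from -3.56 to -1.38. CLDN11, a claudin of barriers such as those in testis and myelin, had its lowest conception levels of -3.24 on day 4 replicate 3, -0.06 on day 6 replicate 3 and 0.77 on day 6 replicate 2, whereas on day 4 replicate 4 it stood at 2.80, the highest of that group. These arrays were picked out after their values were seen. GJA1 averaged 3.07 ± 1.62 at conception day 4 and 1.92 ± 0.21 at conception day 2 (SD, n = 4 each).

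Against non-mated cycles at day 6, where no array was weak, CDH22 and KRT4 were higher and ITGB8 was lower on every conception array. ITGA2B was higher and CDH13 lower on average, both with overlapping arrays. Of 35 members 0 passed (limma, smallest adjusted p 1.00), as 0.0083% of all features did, a single feature that was lower in conception. An unadjusted p under 0.05 was found for 3 members (ITGA2B, ITGB8 and CDH13) and 290 features (2.41%). The median of the members was 0.34 against 0.00 over all features, with 22 of 35 higher in conception cycles. The arrays of 3 members, CDH22, ITGB8 and KRT4, did not overlap, against 4.33% of all features. Although no day 6 array was weak, the weak arrays widened the common spread, and without them 5 members and 1128 features had an unadjusted p under 0.05, with 0 members and 3 features past the threshold.

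At day 6 CDH22 stood at 0.07, 0.46, 0.89 and 0.12 in conception cycles, against -0.57, -0.75, -0.71 and -0.91 in non-mated cycles. The groups were wholly separate, and both were narrow. The difference was 1.12 with an SE of 0.73, or 0.35 when the spread was estimated without the weak arrays, and the limma adjusted p was 1.00, or 0.420 without the weak arrays. It was 1.24 within scan day 1 and 1.01 within scan day 2.

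ITGB8 stood at -2.82, -3.81, -4.84 and -2.43 in conception cycles at day 6, against -2.21, -1.74, -1.70 and -2.42 in non-mated cycles. The groups did not overlap, but the nearest arrays, at -2.43 and -2.42, were almost level. The difference was -1.46 ± 0.58 (limma adjusted p 1.00, or 0.472 without the weak arrays).

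ITGB8 behaved alike at day 4, with -3.02, -2.45, -4.46 and -2.94 in conception cycles, against -2.01, -1.73, -0.84 and -2.32 in non-mated cycles. The groups again did not overlap. The difference was -1.49 ± 0.58 with all arrays and -1.63 without the 2 weak ones, on which the probe was not well above background. It was also not well above background on conception day 4 replicate 3, the array at -4.46. The value of -1.63 rests on non-mated replicates 3 and 4 alone, both from scan day 1, where slide and cycle type cannot be told apart. On day 2 the conception arrays had -3.31, -2.55, -0.93 and -1.64, against -1.66, -2.21, -0.28 and -1.15 in non-mated cycles, with overlap.

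ITGA2B had -0.69, -1.34, -0.57 and -0.14 at conception day 6, against -1.85, -2.75, -3.03 and -0.78 at non-mated day 6. Only replicate 4 of the non-mated arrays reached into the conception range. The difference was 1.41 ± 0.49, a 2.66-fold ratio, with an unadjusted p of 0.00882 and a limma adjusted p of 1.00. It was 2.53 within scan day 1 and 0.29 within scan day 2.

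CDH13 stood at -1.93, -2.23, -1.78 and -1.09 at conception day 6, against 0.10, -0.07, -1.42 and -0.28 at non-mated day 6, overlapping through 1 array on each side. The difference was -1.34 ± 0.57. It was also lower in conception at day 2, where conception arrays had -1.51, 0.41, -2.10 and -1.69, against 0.68, -0.48, -0.28 and 1.48 in non-mated cycles. That difference was -1.57 ± 0.57 with all arrays (limma adjusted p 0.793) and -1.78 without the weak array. The one high conception array, at 0.41, is the one rich in smooth muscle markers, and without it the difference was -2.12.

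The other members named by the rule at day 6 overlapped between cycle types. KRT83, a hair keratin, differed by 1.59 ± 1.08 and CLDN23 by -0.82 ± 0.53. KRT4 had -4.33, -3.43, -3.08 and -4.07 in conception cycles, against -4.52, -4.95, -5.16 and -4.89 in non-mated cycles, without overlap. It was well above background on 2 of 4 arrays of each group, and the dim untested features had a median difference of 1.12 here too. Of the 6 keratins 5 were higher in conception, with a median of 0.81, and all 3 leucocyte and platelet integrins were higher, with a median of 0.90. The summed leucocyte markers ran from 5.19 to 10.3 at conception day 6, with a median of 6.86, against 3.41 to 7.30 at non-mated day 6, with a median of 4.06, and their part in these differences was not tested.

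At day 4 the weak arrays decided the direction of most keratins. Of 35 members 0 passed (limma), as 0% of all features did, and 2 members (ITGB8 and ITGAV) and 732 features (6.07%) had an unadjusted p under 0.05. With all arrays 13 members were higher in conception cycles and the median was -0.44, against 0.02 over all features. Without non-mated replicates 1 and 2 the median was 0.13, with 19 higher, and the median of the 6 keratins was 0.69 in place of -1.20, with 5 of 6 higher in place of 0. Without the weak arrays 4 members had an unadjusted p under 0.05, as ITGB4 (-1.63) and CLDN23 (-1.13) joined ITGB8 and ITGAV, as 661 features (5.48%) had, and 0 members passed.

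Among the members that differed at day 4, ITGAV stood at -1.36, -1.26, -1.19 and -1.05 in conception cycles, against -2.39, -1.73, -1.69 and -1.95 in non-mated cycles. All conception arrays were higher. The difference was 0.72 ± 0.32 (limma adjusted p 0.688) and 0.60 without the weak arrays. ITGA2B, ITGB8 and ITGB1BP2, a muscle partner of ITGB1, were the other members without overlap, where 2.42% of all features had none. ITGA2B differed by 0.70 ± 0.49, or 0.50 without the weak arrays, on both of which it was not well above background.

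GJA1 differed by 1.30 ± 0.64 at day 4 and by 0.90 without the weak arrays, CLDN11 by -1.71 ± 0.94 and -1.52, and KRT83 by -2.19 ± 1.08 and -0.46. The high and low arrays behind the first 2 are those given above, replicates 3 and 4 for GJA1 and replicate 3 for CLDN11.

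At day 2, 0 of 35 members passed (limma), as 0% of all features did. GJB1 and CDH13 had an unadjusted p under 0.05, as 299 features (2.48%) had. Without the weak arrays 1 member, CDH13, had such a p, as 149 features (1.24%) had. With all arrays 11 members were higher in conception cycles and the median was -0.27, against -0.15 over all features. Without non-mated replicate 3 the median was 0.06 and 21 were higher. GJB1, a connexin of glandular epithelia, was the single member without overlap (1.43% of all features had none), with 1.73, 1.48, 1.62 and 1.36 in conception cycles, against 0.92, 0.70, -0.08 and 1.15 in non-mated cycles. The difference was 0.88 ± 0.36 (adjusted p 0.793), or 0.62 without the weak array.

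The other members named at day 2 leaned on the weak array. DSG2, a desmoglein of simple epithelia, differed by -1.92 ± 1.17 with it and by -0.32 without it. ITGB5 differed by 0.94 ± 0.54 with it and 0.29 without it, ITGA6 by 0.85 ± 0.62 and 0.03, and ITGB1BP1, a regulator that binds the tail of ITGB1, by -0.70 ± 0.48 and -0.21.

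**Figure D2:**
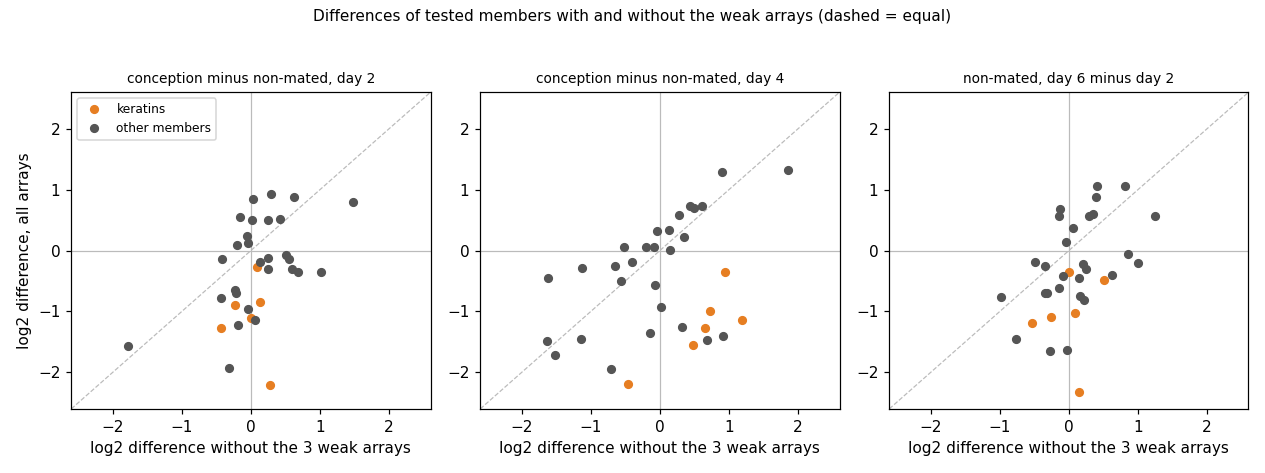
Each point is a tested member, with its log2 difference without the weak arrays on the horizontal axis and with all arrays on the vertical axis, for conception minus non-mated at day 2 and day 4 and for non-mated day 6 minus day 2, keratins in orange. All 6 keratins lie below 0 on the vertical axis in each panel, whereas 4, 5 and 4 of them lie above 0 on the horizontal axis.

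In non-mated cycles 0 of 35 members passed between day 6 and day 2 (limma), as 0% of all features did, and 0 members and 384 features (3.19%) had an unadjusted p under 0.05. With all arrays 10 members were higher at day 6 and the median was -0.35, against -0.18 over all features, and without the weak day 2 array 20 were higher and the median was 0.09. ITGB5 had 2.58, 2.65, 2.38 and 3.24 at day 6, against 2.19, 2.38, -0.28 and 2.35 at day 2, without overlap, although the closest arrays were almost level. Its difference was 1.06 ± 0.54 and 0.41 without the weak array. CLDN15, a pore-forming claudin, was the other member without overlap, where 3.00% of all features had none, but its second probe differed in sign in this comparison, 0.56 for the probe used and -0.57 for the other.

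KRT4 showed how far 1 array reached: it differed by -2.32 ± 1.57 between non-mated days 6 and 2 with all arrays and by 0.15 without day 2 replicate 3, where it stood at 4.87. TJP3 differed by -1.64 ± 0.95 and -0.28, ITGA2B by -0.69 ± 0.49 and -0.32, GJB1 by 0.60 ± 0.36 and 0.35, and ITGB4 by 0.88 ± 0.61 and 0.39.

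Whether the day pattern differed between cycle types was tested by the interaction of cycle type and day. No member passed (limma F-test), as 0% of all features did, and 0 members and 164 features had an unadjusted p under 0.05. The smallest p among members was 0.0611, for KRT83, and the smallest adjusted p was 0.987. Without the weak arrays 0 members passed, and 0 members and 318 features (2.64%) had an unadjusted p under 0.05. The larger day 6 minus day 2 values of ITGAL, CDH22 and KRT4 in conception cycles were therefore not shown to differ from those in non-mated cycles.

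**Figure D3:**
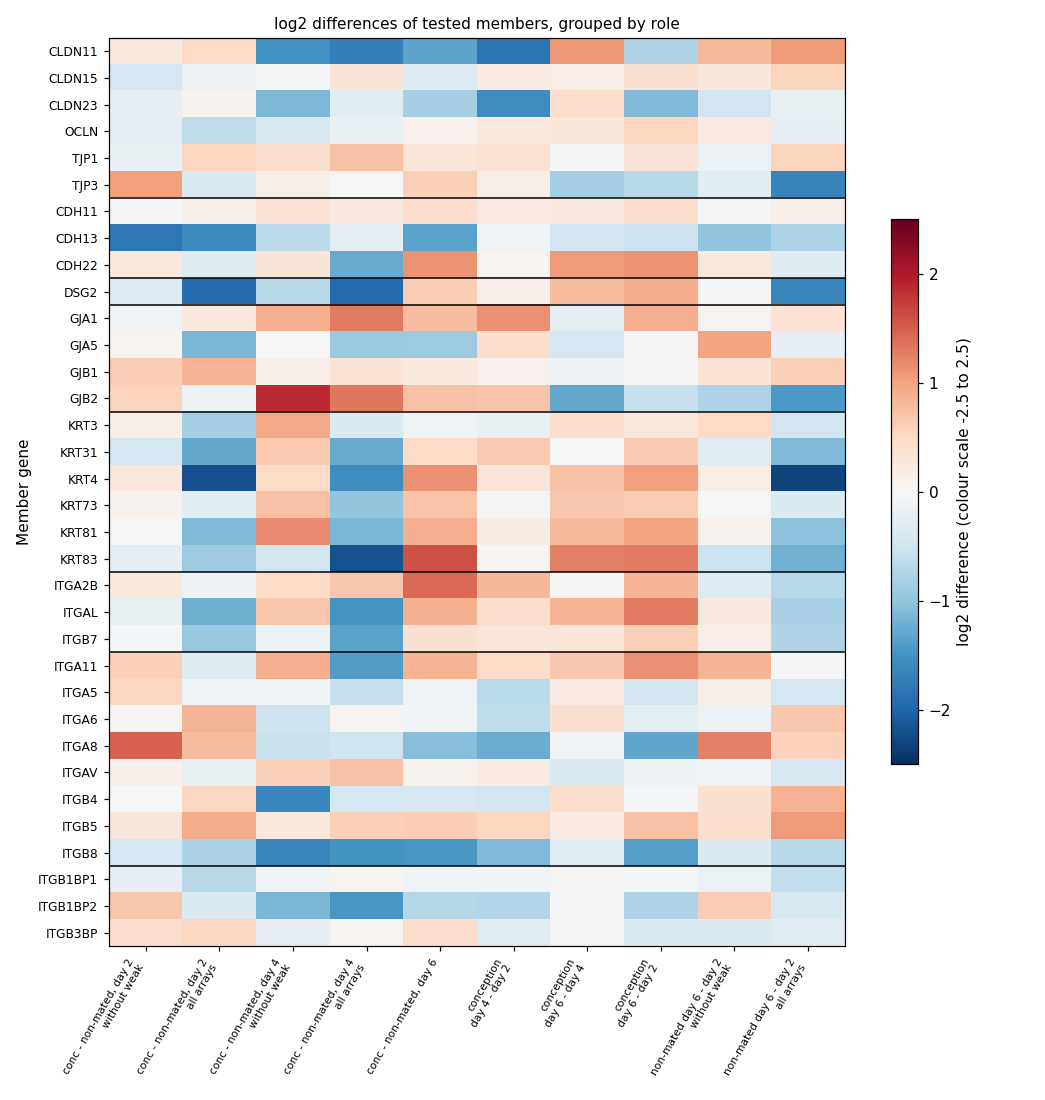
log2 differences of tested members, in rows grouped by role, for 7 comparisons in columns, the 3 that use weak arrays also without them; red is higher and blue lower in the group named first. ITGB8 is blue in every column and CDH22 is red in the columns of conception day 6, at 1.06 to 1.12.

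OCLN and TJP1 are core proteins of epithelial tight junctions. OCLN, the transmembrane protein occludin, averaged -2.09 ± 0.64, -1.84 ± 0.32 and -1.55 ± 0.80 at conception days 2, 4 and 6, and -1.45 ± 1.04, -1.65 ± 0.29 and -1.66 ± 0.59 at non-mated days 2, 4 and 6 (SD, n = 4 each). TJP1, the scaffold ZO-1, averaged 2.37 ± 0.42, 2.74 ± 0.42 and 2.69 ± 0.42 in conception cycles and 1.83 ± 1.46, 2.01 ± 1.45 and 2.39 ± 0.81 in non-mated cycles in the same order of days, and the first 2 non-mated means were 2.53 and 2.31 without the weak arrays. Neither gene had an unadjusted p under 0.05 in any comparison. CLDN10 was well above background on 8 arrays and ITGA4 on 1, and neither was tested.

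A further 34 genes of these families carry another name in the files and were identified through gene IDs or probe descriptions, and 19 of them were tested. CLDN9, a claudin known from the inner ear, was the single one past the threshold in any comparison. It had 2.73, 2.67, 3.1 and 2.07 at conception day 6, against 0.86, 1.27, 0.29 and 0.41 at conception day 2, without overlap, and rose by 1.93 ± 0.36 (limma adjusted p 0.0300). As every feature did, it lost the call without conception day 2 replicate 4 or day 6 replicate 2. Conception day 4 arrays had 1.52, 1.55, 1.93 and 0.46. CLDN9 also stood at 4.93 and 6.61 on the weak arrays non-mated day 2 replicate 3 and day 4 replicate 2.

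KRT19, a keratin of simple epithelia, had 2.28, 2.28, 2.45 and 1.16 at conception day 6, against 2.73, 4.19, 4.18 and 3.04 at conception day 2. The arrays did not overlap, and the difference was -1.49 with a limma adjusted p of 0.160. CLDN1, which was not a listed core gene, differed by -1.61 (adjusted p 0.270). Its probe was well above background on 1 of 4 arrays at conception day 6 and 4 of 4 at conception day 2. Lower values were not general among the 19 genes tested under another name. Of these 19, 12 were higher at conception day 6 than at day 2, with a median of 0.12, where 48.3% of all features were higher. CLDN4, another epithelial claudin, averaged 0.27 ± 0.82 at conception day 6 and 1.56 ± 0.60 at conception day 2 (limma adjusted p 0.494). CLDN3, an epithelial claudin, averaged 4.65 ± 0.42 at conception day 6 and 4.53 ± 0.34 at conception day 2. JUP, plakoglobin of desmosomes and adherens junctions, averaged 2.65 ± 0.69 and 2.45 ± 0.83 on the same days. KRT7, a keratin of simple epithelia, averaged -2.30 ± 1.36 and -2.38 ± 0.88. ITGA1, a collagen receptor chain, was well above background on 0 to 2 arrays of each group. The summed signal of the epithelial markers was 21.1 to 59.2 times the 75th percentile at conception day 6, with a median of 24.4, against 30.4 to 59.7 at conception day 2, with a median of 47.8, and its part in these values was not tested. CDH1, EPCAM, DSP, KRT8, KRT18, ITGB1, ITGB3 and CLDN7 were not analysed here.

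The proteins that junctions and integrins attach to gave 0 calls in the 7 comparisons (limma), and 0 to 6 of the 27 genes tested had an unadjusted p under 0.05 in a comparison. The 6 were found between conception days 6 and 2, where 12.2% of all features had such a p. In the other comparisons 0 to 3 of the 27 had one, against 2.41% to 6.23% of all features. Tested were 9 of 28 listed adherens and tight junction partners, 0 of 12 desmosome and hemidesmosome partners, 10 of 16 focal adhesion partners and 8 of 14 regulators of the epithelial state. Between conception days 6 and 2, 7 of the 9 adherens and tight junction partners were higher, with a median of 0.11, 4 of the 10 focal adhesion partners, with a median of -0.16, and 3 of the 8 regulators, with a median of -0.56. Among these genes the smallest adjusted p in that comparison was that of OVOL1, a transcription factor of epithelial differentiation, with a difference of -1.78 and a limma adjusted p of 0.0707.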

How the data were processed

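The deposited scanner files hold fluorescence intensity per spot, background-corrected by Agilent Feature Extraction, version 9.5.3.1 per the file headers and 10.7.3.1 per the submitters' processing notes. RNA was extracted with Trizol and labelled with Cy3, per the labels' protocols. The authors also deposited a log2 value table, whose centring is not given in the sources used here; its column medians ran from -0.406 to 2.85, its differences between arrays correlated with the scanner values at r 0.982 to 0.999, and it served as an alternative.

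Spots of 1 probe were averaged after leaving out control and outlier spots. The level is log2 of the processed signal minus the array's 75th percentile of it. Of 20217 probes 12780 passed the filter (well above background on 3 or 4 arrays in some group), which gave 12053 features, the brightest probe standing for a gene. Group means were fitted with limma 3.58.1 (R 4.3.3), on all 24 arrays for comparisons of cycle types, for non-mated days and for the interaction (18 residual degrees of freedom), and on the 12 conception arrays for conception days (9). P-values were two-sided and adjusted by Benjamini-Hochberg over all features, with a threshold of 0.05. The code was tested on simulated data. Files were read in Python 3.11.15 (pandas 2.3.3), and figures were made in matplotlib 3.10.9. The number of arrays limits the precision.

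Per the file headers the arrays lay on slides 1 to 9 and were scanned on 2 days, and 6 arrays, on slides 4 and 8, were scanned over a single range. They were conception day 2 replicates 1, 2 and 4, conception day 4 replicate 4, conception day 6 replicate 4 and non-mated day 2 replicate 2. The scan range was thus unevenly spread over conception days 6 and 2, and its part in the differences was not tested. On scan day 1 the slide and the cycle type cannot be told apart. None of 276 array pairs held identical values, and correlations reached 0.975.

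The members and gene lists were chosen with earlier results of these data known. In each comparison the text names members past the threshold, completed to the 3 smallest unadjusted p-values per direction when fewer pass, and gives levels of listed core genes, for several of them at conception days 6 and 2 only. Some genes outside this rule are given as well, among them KRT81, ITGB7, CLDN15, CLDN1, CLDN9 and OVOL1, and other genes outside it are not. Probe descriptions go against the gene name for DSC2 (desmocollin 3), KRT3 (keratin 5 or 6A), KRT2B (keratin 76), KRT33B (keratin 34) and 1 probe of KRT27 (keratin 28), and the files' names were kept. GJB1 has no position in the files. Other settings tried were background correction, normalization, the filter, the mean over a gene's kept probes, the authors' table, slide, scan day and replicate as blocks, and leaving out arrays. A few genes are counted but not reported by name here, and 1 of them is not drawn in the plots.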

Additional observations from a re-analysis of the deposited data

Results flagged for a closer look

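In each group of 4 arrays, the highest or lowest value of a named member was set against its nearest neighbour, and a value counted as far apart when that gap took up most of the range. Of 120 sets examined (20 genes in 6 groups), 8 held such a value, and chance gives about 1 in 20. Of the 8, 7 lay on a weak array. On non-mated day 2 replicate 3, DSG2 stood at 4.80 and KRT4 at 4.87, far above the other 3 arrays, whereas ITGA6 stood at 0.14 and ITGB5 at -0.28, far below them. On non-mated day 4 replicate 2, DSG2 stood at 4.14 and ITGA5 at 1.55, both far above, and on non-mated day 4 replicate 1, ITGA2B stood at -2.14, below the others. The value outside the weak arrays was KRT4 on conception day 4 replicate 4, at -5.03 with its nearest neighbour at -4.31, in a group where none of the 4 arrays measured the probe well above background.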

How the results depend on the processing

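In every comparison 0 members passed when any single array was left out. Without the filter on dim probes 19 members passed between conception days 6 and 2, and with scan day as a block 1 did, ITGAL (adjusted p 0.0485). The number of all features past the threshold at day 6 between cycle types was 0, in place of 1, under normexp, quantile normalization, no filter, slide or scan day as a block, or a fit of the 2 groups alone, and 3 without the weak arrays. Between conception days 6 and 2 it was 0 under normexp and with slide as a fixed block, 2 when all 24 arrays were fitted together and 3665 without the filter, in place of 126. With 1 array left out, the numbers over all features were 0 to 1 at day 4, 0 to 4 at day 6, 0 to 4 for conception days 4 and 2 and 0 to 197 for conception days 6 and 2.

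The labels do not say that a replicate number marks a batch. Same-numbered arrays had correlated deviations of -0.32 to 0.63, and in no comparison did every pair exceed 0.1, so they were not treated as pairs. Between conception days 6 and 4, 3 of the 4 pairs had 0.26 to 0.63, and conception replicates 3 and 4 lay on slides 7 and 8 at every day, per the file headers. With the replicate number as a block, 0 features passed at day 6 between cycle types and 178 between conception days 6 and 2, and no call on a member changed.

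Under normexp the members' medians were -0.39 for conception days 4 and 2 and -0.13 for days 6 and 2, where the median of all features was -0.26 and -0.18. Under normexp the members' median at day 2 between cycle types was 0.12. With the mean over the kept probes of a gene the median for conception days 6 and 2 was 0.04. Under quantile normalization they were 0.20 at day 2, -0.05 at day 4 and 0.41 for non-mated days 6 and 2. Without the filter they were -1.42 at day 2, 0.68 for conception days 4 and 2, 0.88 for days 6 and 2 and -1.28 for non-mated days 6 and 2. Without the weak arrays the day 4 median was 0.13. With 1 array left out they ran from -0.44 to 0.06 at day 2, -0.69 to -0.07 at day 4, 0.19 to 0.50 at day 6, -0.01 to 0.18, 0.14 to 0.34 and 0.16 to 0.44 for conception days 4 and 2, 6 and 4, and 6 and 2, and -0.55 to 0.09 for non-mated days 6 and 2. Within a batch, values without a test were -0.87 at day 2 on scan day 1, -1.23 at day 4 on slide 3 and 0.14 on scan day 1, 0.58 for conception days 4 and 2 on slide 7, 0.67 for days 6 and 4 on slide 8, and for non-mated days 6 and 2 -1.67 on slide 5, -1.05 on scan day 1 and 0.19 on scan day 2.

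Of 444 values of named members under other settings 433 kept their direction and side of the threshold, and 7 changed sign: ITGB1BP1 at day 2 (0.12 under normexp, 0.46 under quantile normalization), KRT31 for conception days 4 and 2 (-0.52, normexp), KRT4 for conception days 6 and 2 (-0.16, normexp), ITGA2B for non-mated days 6 and 2 (0.56, quantile), CDH13 for conception days 6 and 4 (0.10, slide) and KRT4 for non-mated days 6 and 2 (0.15, without the weak arrays, and also without that replicate alone; -3.42 at the other end, without non-mated day 2 replicate 4). The causes were not tested. Within single slides or scan days, compared without a test, 106 of 156 values of named members stayed within 1 pooled SD of the main difference. The other 50 moved further, and each value rested on 1 or 2 arrays per group. On scan days 1 and 2, ITGB8 for conception days 4 and 2 was -2.42 and 0.20, and GJA1 was 2.31 and -0.01. ITGA2B for non-mated days 6 and 2 was -2.07, with 1 weak array, and 0.69. With scan day or the replicate number as a block, all 24 arrays in 1 fit, or the 2 groups alone, the differences equal those of the main fit by design. No sign could change in those settings, so the 433 overstate how firmly the directions held. Signal over background limits KRT4 and the 39 untested members.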
